A study of Homo sapiens with 6 samples.

Results

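The immunoglobulin-type cell adhesion molecules described here are 10 cell surface proteins that hold cells to each other or to matrix through extracellular immunoglobulin-like domains. Their genes, L1CAM, NRCAM, NCAM1, ALCAM, MCAM, BCAM, ICAM1, VCAM1, CEACAM1 and CEACAM6, were taken by symbol, and all 10 were found among the 34811 genes of the count table. RNA-seq was performed in OVCAR-3 cells, an established human ovarian cancer cell line used as a model of high-grade serous tumors. OV3/SCR cells carried a scrambled pRS shRNA HuSH-29 plasmid (COX-1 status wild-type), and OV3/COX1KD cells carried the same vector with an shRNA against COX-1 (COX-1 knockdown). Both were stable clones selected with puromycin and grown in RPMI-1640 with 10% FBS. Each condition was 1 clone harvested at 3 independent passages, so the knockdown and the clone cannot be told apart, and p-values measure the spread between passages. The comparison asks which adhesion molecule genes differed in level when COX-1 was knocked down.

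Adhesion molecules of the immunoglobulin superfamily bind in several ways. Some bind a copy of themselves on the next cell (NCAM1, L1CAM, ALCAM, CEACAM1), others bind integrins on leukocytes (ICAM1, VCAM1), and BCAM binds laminin of the basement membrane. Several are linked to the cytoskeleton through ankyrins or ezrin family proteins, and several are cleaved from the surface by ADAM proteases. In tumors of epithelial origin, L1CAM and ALCAM have been studied for their part in cell detachment and spread.

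Of the 10 genes, 8 passed the filter on low counts and were tested. At an FDR under 0.01 by edgeR's quasi-likelihood test, 6 of these 8 were lower in OV3/COX1KD than in OV3/SCR cells (L1CAM, NRCAM, NCAM1, ALCAM, MCAM and ICAM1), 1 was higher (BCAM), and CEACAM1 did not pass. Of all 17309 genes tested, 47.9% passed the same threshold, 22.1% as lower and 25.8% as higher. With scaling by total counts alone, 41.0% of the passing genes of the table were higher, against 53.9% with TMM scaling, and the members had the same 6 and 1 calls. The median log2 fold change of the 8 tested members was -0.47, and that of all tested genes was -0.01. The members were chosen with earlier results of these data known, so the contrast with all genes describes the list and does not test it. When a fold change above 2.5 was also required, 2 members passed, NCAM1 and NRCAM, both lower. Of all tested genes 3.92% passed it, 2.34% as lower and 1.58% as higher. The libraries of the 2 conditions did not overlap in normalized level for 8 of the 8 tested members, which held for 63.2% of all tested genes.

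**Figure D1:**
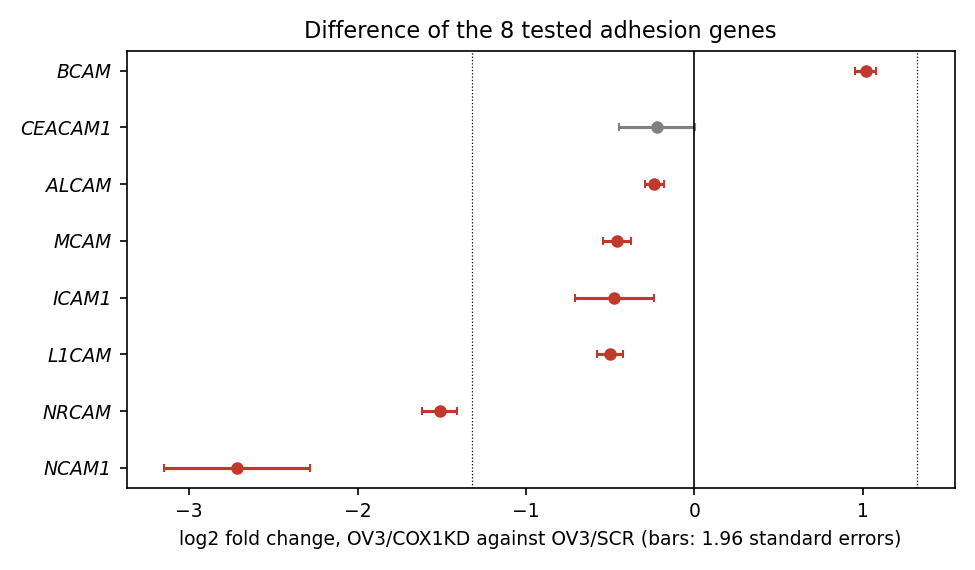
Log2 fold change of the 8 tested adhesion genes in OV3/COX1KD against OV3/SCR cells on the horizontal axis, with 1 gene per row, bars for the 95% interval and dotted lines at a fold change of 2.5 in either direction. Red points passed an FDR of 0.01. NCAM1 and NRCAM lie beyond the lower dotted line, BCAM is the point to the right of 0 at 1.02, and the bar of CEACAM1 reaches 0.

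Promoter sequences are shown for 5 genes whose levels span the range of the data: BCAM, the gene that was higher, NRCAM, MCAM and ICAM1, which were lower, and VCAM1, which was at or near 0 counts in all libraries. Each is the 250 bases before the most upstream RefSeq start (from the RefSeq table of GRCh38.p14), matched without a mismatch to GRCh37, 5′ to 3′ on the strand of the gene. RefSeq gave such an entry for 9 of the 10 members, NCAM1 being the other. Capitals mark matches on either strand to the GC box (GGGCGG), an E-box bound by SNAI and ZEB repressors (CACCTG), the cAMP response element (TGACGTCA), the AP-1 site (TGANTCA), the TATA box (TATAAA) and the kappaB motif bound by NF-κB. For the kappaB motif only the pattern GGGRNWYYCC was searched (R is A or G, W is A or T, Y is C or T, N is any base). BCAM lies on chr19:45312066-45312315 (plus strand), NRCAM on chr7:108096881-108097130 (minus), MCAM on chr11:119187841-119188090 (minus), ICAM1 on chr19:10381546-10381795 (plus) and VCAM1 on chr1:101185048-101185297 (plus).
BCAM: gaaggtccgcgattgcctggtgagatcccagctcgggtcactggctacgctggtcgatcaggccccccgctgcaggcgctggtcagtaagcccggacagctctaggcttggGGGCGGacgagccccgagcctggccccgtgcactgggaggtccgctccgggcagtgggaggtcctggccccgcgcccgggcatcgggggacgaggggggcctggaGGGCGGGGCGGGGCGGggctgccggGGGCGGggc
NRCAM: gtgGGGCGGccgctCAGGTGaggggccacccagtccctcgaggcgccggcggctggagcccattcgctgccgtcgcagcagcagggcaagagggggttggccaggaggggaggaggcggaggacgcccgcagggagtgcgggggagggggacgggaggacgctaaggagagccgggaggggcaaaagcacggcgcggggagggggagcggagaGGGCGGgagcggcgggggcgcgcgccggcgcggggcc
MCAM: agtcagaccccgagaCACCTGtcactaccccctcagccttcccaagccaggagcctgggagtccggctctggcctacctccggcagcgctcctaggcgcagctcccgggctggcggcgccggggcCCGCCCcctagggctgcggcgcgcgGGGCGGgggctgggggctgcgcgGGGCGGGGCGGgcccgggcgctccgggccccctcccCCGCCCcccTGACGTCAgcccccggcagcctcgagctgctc
ICAM1: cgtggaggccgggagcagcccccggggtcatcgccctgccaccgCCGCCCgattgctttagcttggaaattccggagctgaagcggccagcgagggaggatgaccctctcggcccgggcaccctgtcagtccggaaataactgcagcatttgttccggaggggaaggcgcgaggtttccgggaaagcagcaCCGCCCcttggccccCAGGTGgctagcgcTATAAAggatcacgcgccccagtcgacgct
VCAM1: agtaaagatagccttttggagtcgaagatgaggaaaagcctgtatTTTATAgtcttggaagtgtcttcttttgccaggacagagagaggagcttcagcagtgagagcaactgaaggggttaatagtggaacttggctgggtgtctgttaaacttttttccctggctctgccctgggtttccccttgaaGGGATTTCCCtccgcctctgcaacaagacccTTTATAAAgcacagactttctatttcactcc

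The BCAM promoter held 5 GC boxes, of which 3 overlapped in the run that starts 34 bases before the start, and none of the other motifs. At least 1 GC box was found in 42.6% of the 35114 RefSeq promoters of this length. The MCAM promoter also held 5 GC boxes, with a cAMP response element 32 bases and a CACCTG 235 bases before the start. Of all promoters, 1.65% held that cAMP response element and 17.5% a CACCTG. The NRCAM promoter held a CACCTG 236 bases before the start and GC boxes 247 and 37 bases before it. NRCAM had 2 further RefSeq starts, not printed, of which 1 (window chr7:107883830-107884079, minus strand) held a cAMP response element 47 bases and an AP-1 site 60 bases before it, and the other held none of the motifs. ICAM1 held a TATA box 30 bases before the start, with a CACCTG 44 bases and GC boxes 206 and 59 bases before the start, and no match to the kappaB pattern searched. A kappaB site that departs from that pattern would not have been marked in any window, so its absence from ICAM1 was not shown. VCAM1 held a kappaB motif 62 bases before the start, found in 5.21% of promoters, and TATA box letters 31, 29 and 205 bases before it, the first 2 of which overlap. TATAAA was found in 10.7% of promoters, and the AP-1 site, in 6.57%, was in none of the 5 windows printed. Letters of this kind describe the sequence and do not show that a factor bound there.

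The libraries held between 25291505 and 27391538 counts on genes, and within a condition any 2 libraries differed by a chi-square of 1.74 to 5.74 per degree of freedom, against 40.3 to 53.3 across conditions. Pairs with OV3/COX1KD replicate 2 had the highest values within a condition, 4.44 and 5.74, against 1.81 for the other OV3/COX1KD pair. PTGS1 (ENSG00000095303), the gene for COX-1, had 713, 658 and 641 counts in OV3/SCR and 456, 486 and 501 in OV3/COX1KD libraries, giving a log2 fold change (log2FC, knockdown against control) of -0.45 with an SE of 0.057 (edgeR FDR = 1.3e-06). PTGS1 RNA in OV3/COX1KD cells was thus at 0.733 of its control level. The paper described the loss of COX-1 as robust on the basis of protein. All 8 epithelial and Müllerian markers examined (EPCAM, KRT7, KRT8, KRT18, KRT19, PAX8, MUC16 and WT1) were tested. At an FDR under 0.01, 25.8% of all tested genes were higher and 22.1% lower. Of the 8 markers, 6 were higher and 2 (KRT7 and PAX8) lower in OV3/COX1KD cells at this threshold. Their summed level lay between 5421 and 5488 CPM (counts relative to the TMM-scaled size of the library, the unit of every level below unless RPKM is named) in OV3/SCR and between 6869 and 7060 in OV3/COX1KD libraries. The 9 markers of leukocytes, endothelium and stroma read here (PTPRC, CD3E, LYZ, CD68, CDH5, VWF, DCN, LUM and PDGFRB) summed to between 2.93 and 3.29 CPM in OV3/SCR and between 3.15 and 3.34 CPM in OV3/COX1KD libraries. The 3 of these that were tested (LYZ, VWF and DCN) had edgeR FDRs of 0.129 or above. LUM was at 0 counts in all 3 OV3/SCR libraries, and PECAM1 was not analysed here.

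**Figure D2:**
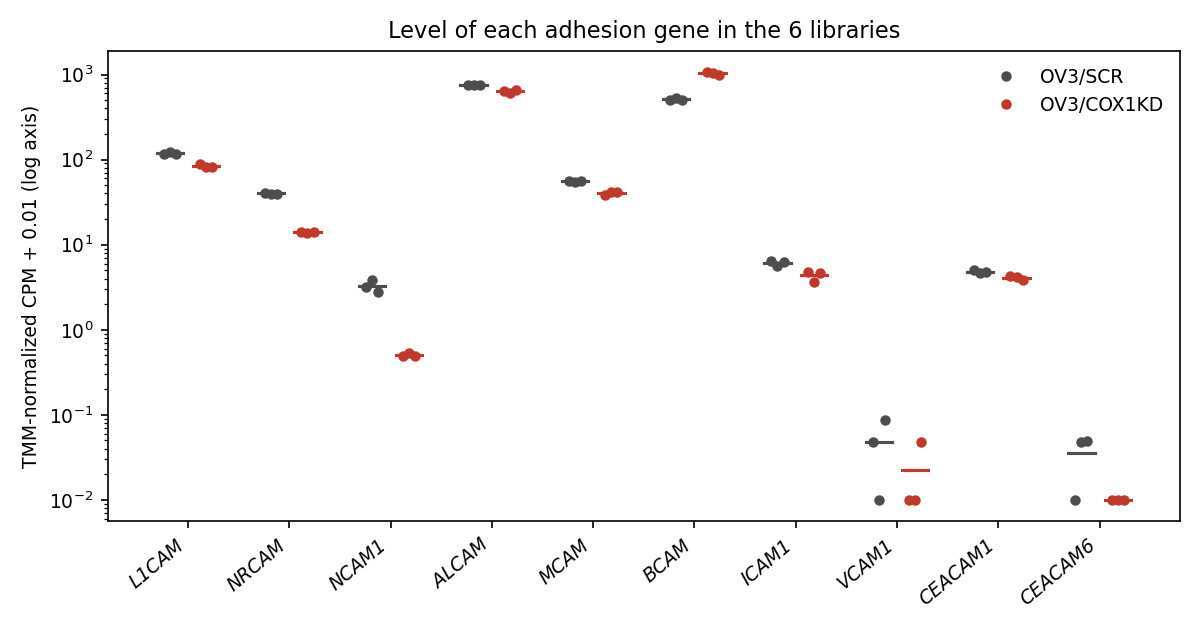
Level of each of the 10 adhesion genes in the 3 OV3/SCR libraries (grey) and the 3 OV3/COX1KD libraries (red), as TMM-normalized CPM plus 0.01 on a log axis, with a line at the mean. Points at 0.01 are libraries with 0 counts. ALCAM and BCAM lie highest, VCAM1 and CEACAM6 lie at the bottom, and the grey and red points of the other genes do not overlap.

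L1CAM and NRCAM belong to the L1 family, neural recognition molecules that guide axons and anchor ankyrin and the spectrin skeleton at the membrane. L1CAM (ENSG00000198910, in GRCh37 on chromosome X, 153126969 to 153151627) had 3105, 3173 and 3019 counts in OV3/SCR and 2222, 2029 and 2172 in OV3/COX1KD libraries. All 3 knockdown libraries were below all 3 control libraries. The mean was 118 ± 2.97 CPM (SD, n = 3) for the control and 83.6 ± 4.07 CPM (SD, n = 3) for the knockdown, giving log2FC = -0.50 with an SE of 0.038 (edgeR FDR = 9.6e-10). NRCAM (ENSG00000091129, chromosome 7 from 107788068 to 108097161) had 1080, 1039 and 1021 counts in OV3/SCR and 359, 346 and 372 in OV3/COX1KD libraries. Each group was narrow and the gap between the groups was far wider than either. The mean for NRCAM was 39.96 ± 0.515 CPM (SD, n = 3) for the control and 14.0 ± 0.232 CPM (SD, n = 3) for the knockdown, giving log2FC = -1.51 with an SE of 0.052 (edgeR FDR = 6.8e-15). The level left was 70.6% of the control for L1CAM and 35.1% for NRCAM.

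The balance of the 2 L1 family genes was read within each library. The ratio of L1CAM to NRCAM counts was 2.88, 3.05 and 2.96 in OV3/SCR and 6.19, 5.86 and 5.84 in OV3/COX1KD libraries. The log2 ratio was 1.01 higher in OV3/COX1KD cells (two-sided exact permutation test over 3 against 3 libraries, p = 0.1, and 0.1 after adjustment over 3 pairs of members). This p is the smallest that 3 against 3 libraries can give, for this pair and for the pairs given for ALCAM and BCAM. Each ratio restates the log2 fold changes of its 2 genes and is not separate evidence.

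NCAM1 (ENSG00000149294, chromosome 11 from 112831997 to 113149158), also called CD56, is a homophilic neural adhesion molecule that can carry polysialic acid. It had 85, 100 and 72 counts in OV3/SCR and 12, 13 and 13 in OV3/COX1KD libraries. The 3 control libraries differed among themselves more than the 3 knockdown libraries did, and the lowest control count was well above the highest knockdown count. The mean was 3.27 ± 0.531 CPM (SD, n = 3) for the control and 0.495 ± 0.0217 CPM (SD, n = 3) for the knockdown, giving log2FC = -2.71 with an SE of 0.22 (edgeR FDR = 2.6e-09), a 6.56-fold fall. These are low counts, and in a bulk library fewer cells expressing a gene and less RNA per cell cannot be told apart. Counts per gene also do not part the isoforms of NCAM1 or of any other member.

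ALCAM and MCAM are relatives with the same order of immunoglobulin domains. ALCAM (ENSG00000170017, chromosome 3 from 105085753 to 105295744), also called CD166, binds itself and CD6, a protein on T cells. It had 20327, 19395 and 19312 counts in OV3/SCR and 16195, 15356 and 17470 in OV3/COX1KD libraries, and the groups did not overlap. The mean was 751 ± 9.84 CPM (SD, n = 3) for the control and 637 ± 22.1 CPM (SD, n = 3) for the knockdown, giving log2FC = -0.24 with an SE of 0.030 (edgeR FDR = 1.2e-06), so that 84.8% of the control level was left. MCAM (ENSG00000076706, chromosome 11 from 119179239 to 119192231), also called CD146, is known from melanoma and endothelium and binds LAMA4-containing laminin. It had 1508, 1428 and 1432 counts in OV3/SCR and 976, 1029 and 1100 in OV3/COX1KD libraries, again without overlap. The mean was 55.6 ± 0.901 CPM (SD, n = 3) for the control and 40.4 ± 1.39 CPM (SD, n = 3) for the knockdown, giving log2FC = -0.46 with an SE of 0.042 (edgeR FDR = 1.5e-08).

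Exons of CBL, on the opposite strand, covered 6.86% of the exon length of MCAM, and CBL had a log2 fold change of -0.07 (edgeR FDR = 0.215). Because the library kit did not mark strand, reads of overlapping exons cannot be told apart by strand. How such reads were counted was not given in the sources used here. The ratio of ALCAM to MCAM counts was 13.5, 13.6 and 13.5 in OV3/SCR and 16.6, 14.9 and 15.9 in OV3/COX1KD libraries, a log2 ratio 0.22 higher in OV3/COX1KD cells (two-sided exact permutation test, p = 0.1, adjusted p = 0.1). All 3 knockdown ratios were above all 3 control ratios.

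BCAM (ENSG00000187244, chromosome 19 from 45312328 to 45324678), the Lutheran blood group glycoprotein, is a receptor for laminins that contain the LAMA5 chain. It had 13437, 13758 and 12949 counts in OV3/SCR and 26847, 25906 and 26618 in OV3/COX1KD libraries. Every knockdown library was above every control library by close to a doubling. The mean was 511 ± 14.8 CPM (SD, n = 3) for the control and 1033 ± 33.8 CPM (SD, n = 3) for the knockdown, giving log2FC = 1.02 with an SE of 0.031 (edgeR FDR = 1.2e-15), a rise of 2.02-fold. The ratio of BCAM to ALCAM counts was 0.661, 0.709 and 0.671 in OV3/SCR and 1.66, 1.69 and 1.52 in OV3/COX1KD libraries. In log2 terms this ratio was 1.25 higher in OV3/COX1KD cells (two-sided exact permutation test, p = 0.1, adjusted p = 0.1).

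Levels of different genes were compared per length, as RPKM (TMM-normalized CPM per kilobase of exons in GENCODE 44 lifted to GRCh37). In OV3/SCR cells ALCAM had 105 ± 1.37 RPKM and BCAM 102 ± 2.96 (SD, n = 3), and their libraries overlapped. These were followed by L1CAM with 16.3 ± 0.408 RPKM, MCAM with 7.49 ± 0.121, NRCAM with 5.01 ± 0.0646, ICAM1 with 1.75 ± 0.122, CEACAM1 with 0.866 ± 0.0350 and NCAM1 with 0.258 ± 0.0418 (SD, n = 3), with no overlap between neighbours. In OV3/COX1KD cells BCAM stood first with 207 ± 6.77 RPKM and ALCAM second with 88.8 ± 3.08 (SD, n = 3), and the order of the next 6 was the same as in control cells. Scaling by coding length in place of exon length gave the same order, with ALCAM at 429 ± 5.62 RPKM and BCAM at 271 ± 7.85 (SD, n = 3) in OV3/SCR cells, which then did not overlap.

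The summed RPKM of the 10 members was 239 ± 2.77 (SD, n = 3) for the control and 316 ± 7.11 (SD, n = 3) for the knockdown. BCAM made up 42.9 ± 0.830% (SD, n = 3) of this sum in control and 65.4 ± 1.11% (SD, n = 3) in knockdown cells. The share of ALCAM was 43.9 ± 0.788% in control and 28.1 ± 1.06% (SD, n = 3) in knockdown cells. L1CAM accounted for 6.82 ± 0.117% and 3.64 ± 0.0953% (SD, n = 3), and NRCAM for 2.10 ± 0.0273% and 0.556 ± 0.00525% (SD, n = 3). The shares depended on the length used. By coding length BCAM held 34.8 ± 0.810% of the sum in control and 56.9 ± 1.26% in knockdown cells (SD, n = 3), and ALCAM held 55.2 ± 0.779% and 37.8 ± 1.23% (SD, n = 3). L1CAM then held 4.03 ± 0.0846% and 2.298 ± 0.0652% (SD, n = 3), and NRCAM 1.31 ± 0.0123% and 0.372 ± 0.00175% (SD, n = 3). With either length the share of BCAM was higher and the shares of ALCAM, L1CAM and NRCAM were lower in each OV3/COX1KD library than in any OV3/SCR library. Shares of the same sum are not independent, and a higher BCAM level by itself lowers the shares of the other genes. The sum was higher in each OV3/COX1KD library than in any OV3/SCR library, although 6 of its 8 tested members were lower.

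**Figure D3:**
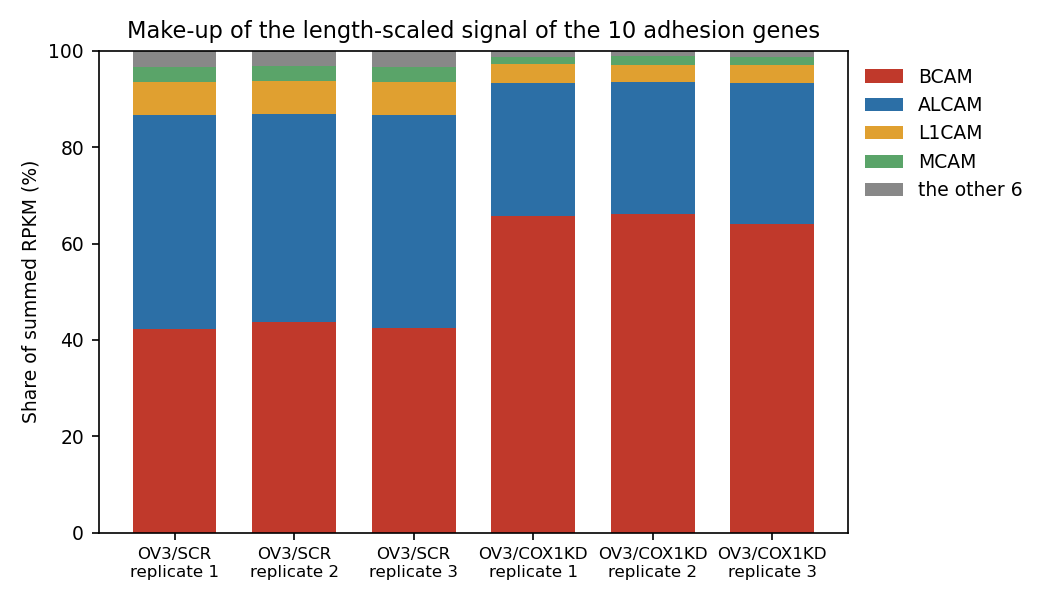
Share of the summed RPKM (by exon length) of the 10 adhesion genes held by each gene, in percent, with 1 stacked bar per library and NRCAM, NCAM1, ICAM1, VCAM1, CEACAM1 and CEACAM6 drawn together as the other 6. By this length BCAM holds 42.2 to 43.8% and ALCAM 43.0 to 44.5% in the 3 OV3/SCR libraries (34.2 to 35.8% and 54.3 to 55.8% by coding length, not drawn), and BCAM holds 64.1 to 66.2% in the 3 OV3/COX1KD libraries.

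ICAM1 and VCAM1 are cell surface ligands of leukocyte integrins and known targets of NF-κB. ICAM1 (ENSG00000090339, chromosome 19 from 10381769 to 10397291) had 169, 145 and 161 counts in OV3/SCR and 121, 91 and 122 in OV3/COX1KD libraries. The groups did not overlap, and replicate 2 was the lowest library in both. The mean was 6.04 ± 0.419 CPM (SD, n = 3) for the control and 4.34 ± 0.624 CPM (SD, n = 3) for the knockdown, giving log2FC = -0.48 with an SE of 0.12 (edgeR FDR = 0.0021). The edgeR FDR was 0.0136 without OV3/SCR replicate 1 and 0.0126 without OV3/SCR replicate 3, so that this call was lost when either control library was left out. Exons of ENSG00000267607, on the opposite strand, covered 23.6% of the exon length of ICAM1, and that gene had 0, 2 and 0 counts in OV3/SCR and 0 in each OV3/COX1KD library. VCAM1 (ENSG00000162692, chromosome 1 from 101185298 to 101204601) had 1, 0 and 2 counts in OV3/SCR and 0, 0 and 1 in OV3/COX1KD libraries. No library exceeded 3 counts, the floor of detection used here, which equals 0.113 to 0.120 CPM. No fold change is given for VCAM1, and a difference was not detectable at this depth.

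CEACAM1 and CEACAM6 belong to the carcinoembryonic antigen family, CEACAM1 crossing the membrane with an inhibitory tail and CEACAM6 being held by a lipid anchor. CEACAM1 (ENSG00000079385, chromosome 19 from 43011456 to 43065386) had 133, 120 and 123 counts in OV3/SCR and 109, 104 and 102 in OV3/COX1KD libraries. The groups did not overlap, yet its log2FC of -0.22 with an SE of 0.12 did not pass (edgeR FDR = 0.107). Its 95% interval ran from -0.45 to 0.004, which includes 0. CEACAM6 (ENSG00000086548, chromosome 19 from 42254885 to 42276116) had 0, 1 and 1 counts in OV3/SCR and 0 in each OV3/COX1KD library. This was at or under the floor of 3 counts in all 6 libraries, so no fold change is given. Genes of the CEACAM family share near-identical stretches, and how the counting treated reads that fit several of them was not given in the sources used here, which makes their low counts uncertain.

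The members lay on 6 chromosomes, and the tested genes within 500 kb of each were read for comparison. Of all tested genes, 25.8% were higher and 22.1% lower at an FDR under 0.01, and their median log2 fold change was -0.01. Around BCAM, 25 genes were tested, 5 being higher and 5 lower at the same FDR, with a median log2 fold change of 0.01. Among these neighbours, the nectin gene PVRL2 was higher (log2FC = 0.40, edgeR FDR = 1.0e-08). Its relative PVR (edgeR FDR = 0.787) and CEACAM19 (edgeR FDR = 0.0262), also near BCAM, did not pass. Around NRCAM, 4 of 11 tested genes were higher and 7 did not pass, with a median of 0.20, against -1.51 for NRCAM itself. Neither of the 2 tested genes near NCAM1 passed, and the 1 tested gene near ALCAM was higher (0.54). Around MCAM, 6 of 25 were higher and 2 lower, with a median of -0.09, and the nectin gene PVRL1 among them did not pass (edgeR FDR = 0.134). For L1CAM the 27 tested neighbours had a median of 0.06, with 10 higher and 7 lower. Around ICAM1, 4 of 31 tested genes were higher and 13 lower, with a median of -0.11. Around VCAM1, 5 of 9 were higher and 1 lower, with a median of 0.43. CEACAM1 had 13 tested neighbours, 5 higher and 1 lower, with a median of 0.07, and CEACAM6 had 22, 6 higher and 3 lower, with a median of 0.13. Among the neighbours of ICAM1 was ICAM5 (ENSG00000105376, from 10400628 to 10407454), a neuronal member of the ICAM family that lies in the same cluster of ICAM genes. ICAM5 had 79, 66 and 56 counts in OV3/SCR and 170, 165 and 160 in OV3/COX1KD libraries, giving log2FC = 1.33 with an SE of 0.13 (edgeR FDR = 3.6e-08). ICAM1 and ICAM5 thus had opposite signs, while ICAM3 of the same cluster had a log2 fold change of 0.27 that did not pass (edgeR FDR = 0.0145).

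Other adhesion genes of the superfamily were read from 5 lists. Of the 37 genes found in the table, 21 were tested, 7 were higher, 3 were lower and 11 did not pass, and their median log2 fold change was 0.06. The share called, 47.6%, was close to the 47.9% of all tested genes. In the lists of L1 and NCAM relatives with contactins, 3 of 11 genes were tested and 1 was lower, CNTN5, a neural contactin (log2FC = -1.41 with an SE of 0.21, edgeR FDR = 7.4e-06). CHL1, a close homolog of L1CAM, and NCAM2, a relative of NCAM1, had at most 3 counts in any library. All 7 nectins and nectin-like genes were tested, of which 3 were higher (PVRL2, PVRL3 and PVRL4) and 1 was lower, CADM1, a nectin-like adhesion molecule. CADM1 had 189, 196 and 158 counts in OV3/SCR and 40, 30 and 34 in OV3/COX1KD libraries, giving log2FC = -2.35 with an SE of 0.15 (edgeR FDR = 6.6e-11). Nectins cooperate with E-cadherin at adherens junctions. The rises of the 3 nectin genes that passed lay between 0.35 and 0.42 on the log2 scale. A further nectin gene, PVRL1, did not pass (log2FC = -0.07, edgeR FDR = 0.134).

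The junctional adhesion and coxsackie receptor group had 8 of 10 genes tested. Of these, 3 were higher, F11R (0.48), CXADR (0.77) and CLMP (1.14), and 1 was lower, IGSF11 (log2FC = -1.21 with an SE of 0.068, edgeR FDR = 9.5e-12). F11R and CXADR encode proteins of epithelial tight junctions. Exons of another gene on the same strand (ENSG00000270149) covered 36.6% of the exon length of F11R, so its value is uncertain. Among the other CEACAM genes only CEACAM19 of 5 was tested, and its log2 fold change of -0.41 did not pass (edgeR FDR = 0.0262). Beside ICAM5 and ICAM3, the remaining genes of the ICAM list that were found, ICAM2 and MADCAM1, did not reach the filter.

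**Figure D4:**
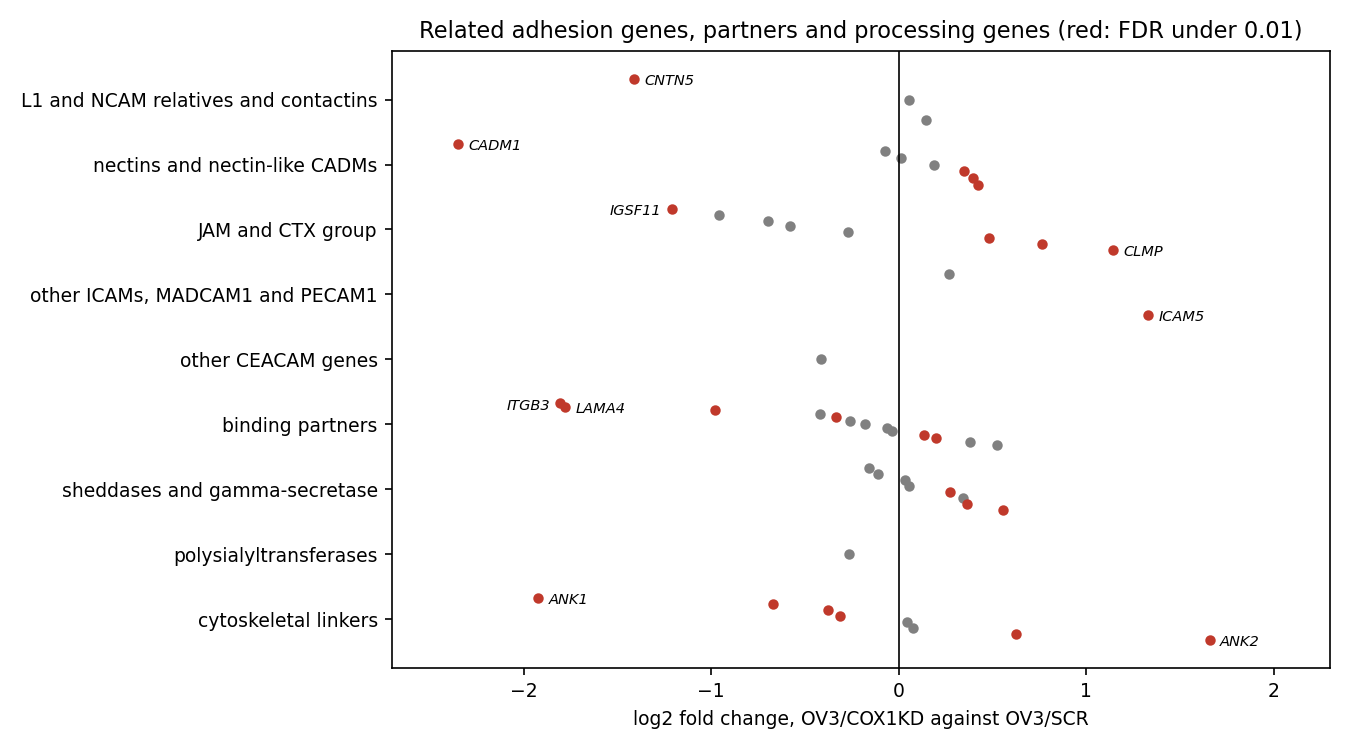
Log2 fold change in OV3/COX1KD against OV3/SCR cells (horizontal axis) of the tested genes of 9 lists, 5 of other adhesion genes and 4 of partners, processing enzymes and cytoskeletal linkers, with 1 point per gene and red for an FDR under 0.01. Genes that passed with a log2 fold change of at least 1 in size are named. Each of the first 3 lists holds at least 1 named gene below 0, and CADM1 lies lowest at -2.35.

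LAMA5, the laminin chain bound by BCAM, was counted between 38172 and 43791 times in each library, giving log2FC = -0.04 with an SE of 0.031 (edgeR FDR = 0.334), or -0.11 and past the threshold (edgeR FDR = 0.00344) with total count scaling. LAMA4, the chain bound by MCAM, had 131, 146 and 141 counts in OV3/SCR and 38, 35 and 46 in OV3/COX1KD libraries, giving log2FC = -1.78 with an SE of 0.14 (edgeR FDR = 2.5e-09). LAMA4 and MCAM were thus both lower, while LAMA5 did not pass where BCAM was higher. ITGB3, which pairs with ITGAV in an integrin that can bind L1CAM, had 369, 341 and 327 counts in OV3/SCR and 105, 89 and 96 in OV3/COX1KD libraries, giving log2FC = -1.80 with an SE of 0.095 (edgeR FDR = 3.8e-12). Of the 13 partner genes tested, 46.2% passed, close to the 47.9% of all tested genes, and their median log2 fold change was -0.18. Among them 4 were lower (ITGB3, LAMA4, ITGB7 and ITGAV) and 2 higher (ITGB1 and FGFR1), the rise of FGFR1 being 0.14 on the log2 scale, or 0.06 and not past the threshold (edgeR FDR = 0.106) with total count scaling. The leukocyte integrin chains that bind ICAM1, ITGAL and ITGB2, were counted at most 26 and 15 times in a library, and neither passed. Exons of ZNF740 on the opposite strand covered 42.3% of the exon length of ITGB7, whose value is uncertain.

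Genes for proteases that cleave adhesion molecules were read from a list of 8, which were all tested. ADAM17 (0.28), NCSTN (0.36) and APH1A (0.56) were higher on the log2 scale, and the other 5 did not pass. The share that passed was 37.5%, against 47.9% of all tested genes, and the median log2 fold change of the 8 was 0.17. ADAM17 is a sheddase, and NCSTN and APH1A are parts of gamma-secretase, which cuts the stub that shedding leaves. Exons on the opposite strand covered 14.1% of the exon length of APH1A (C1orf54) and 10.3% of that of ADAM17 (IAH1). ADAM10, a sheddase of L1CAM, had the highest counts of the list, with 369 CPM in OV3/SCR and 384 CPM in OV3/COX1KD cells, giving log2FC = 0.06 (edgeR FDR = 0.112). Of the 2 enzymes that add polysialic acid to NCAM1, ST8SIA4 had between 8 and 15 counts in each library and did not pass (log2 fold change -0.27, edgeR FDR = 0.544), and ST8SIA2 had at most 1.

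All 8 genes for cytoskeletal linkers were tested and 6 passed, 2 as higher and 4 as lower, a share of 75% against 47.9% of all tested genes. Their median log2 fold change was -0.13. ANK2, an ankyrin, had 667, 654 and 663 counts in OV3/SCR and 2082, 1824 and 2229 in OV3/COX1KD libraries, giving log2FC = 1.66 with an SE of 0.053 (edgeR FDR = 1.9e-15). ANK1, of the same family, had 29, 26 and 35 counts in OV3/SCR and 6, 6 and 11 in OV3/COX1KD libraries, giving log2FC = -1.92 with an SE of 0.31 (edgeR FDR = 3.0e-05). ANK3, a further ankyrin, had a log2 fold change of -0.38 (edgeR FDR = 2.5e-08). The linkers that tie membrane proteins to actin were also divided, with EZR lower at -0.67 (edgeR FDR = 6.2e-13), MSN higher at 0.63 (edgeR FDR = 7.9e-12) and RDX at 0.07 without a call. Whether any of these genes acted on the adhesion molecules was not tested.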

How the data were processed

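Gene expression was measured by RNA-seq (Illumina TruSeq libraries) in 3 OV3/SCR and 3 OV3/COX1KD libraries, grouped by their labels. Raw counts of 34811 genes were deposited, which the authors had obtained with HTSeq from TopHat2 alignments to hg19 (GRCh37). The gene annotation and the strand setting were not given in the sources used here.

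All genes entered 1 fit with edgeR 4.0.16 (R 4.3.3). Libraries were scaled by TMM, 17309 genes passed filterByExpr, and the conditions were compared by glmQLFit and glmQLFTest with Benjamini-Hochberg adjustment over those genes. The biological coefficient of variation was 3.21%. A standard error is the size of the log2 fold change divided by the square root of F. A call means an FDR under 0.01 (which the study combined with a fold change above 2.5), and levels at or under 3 counts in all libraries were given no fold change. That floor reflects counting error alone, because PCR copies are not separate molecules. Exon and coding lengths, coordinates and overlaps came from GENCODE 44 lifted to GRCh37, and promoters from RefSeq.

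The members and gene lists were chosen with earlier results of these data known. Some genes of the marker and protease lists are not reported here and entered no list count or sum. All members were named, and of the other lists the genes past an FDR of 0.01 with a log2 fold change of at least 1 in size, at most 4 per list, or the most abundant gene where none was. LAMA5, ICAM3, PVR, PVRL1, ANK3, EZR, RDX, ITGAL, ITGB2 and genes named to spell out a count were named after their values were seen.

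Alternatives were RLE or total count scaling, no filter, a minimum of 10 counts per library, DESeq2 1.42.0, the replicate number as a block, and leaving out each library in turn. On simulated data for this comparison (17309 genes), edgeR recovered 80 of 80 genes with a log2 CPM of 1 or more and 23 of 28 less abundant genes for a log2 change of 1.5. For a log2 change of 0.5 it recovered 62 of 69 and 1 of 18. The simulation changed a small part of the genes and gave every gene the same dispersion. The real data differ in both, so these shares are not the power of this comparison.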

Additional observations from a re-analysis of the deposited data

How the results depend on the processing

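The 7 calls among the members (6 lower, 1 higher) were found under RLE scaling, total count scaling, no filter, at least 10 counts in every library, DESeq2 and the replicate block. With 1 library left out at a time, 6 or 7 members passed, ICAM1 being the gene lost without OV3/SCR replicate 1 or 3. Of 96 values of the 8 tested members under these alternatives, 94 kept the direction and the side of the threshold, 2 no longer passed and 0 changed sign. The number of genes called in the table lay between 7124 and 8989, and was highest without OV3/COX1KD replicate 2. Libraries with the same replicate number deviated from their condition means with correlations of 0.0022, 0.0444 and 0.0194 across genes, so the numbers were not taken as a pairing. With the replicate block the log2 fold changes were -2.71 for NCAM1, -1.51 for NRCAM and 1.02 for BCAM, PTGS1 had -0.45, and 7 members and 8233 genes of the table were called. Libraries 1, 2 and 3 of OV3/SCR each correlated best with the OV3/COX1KD library numbered 3, 2 and 3.

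Outside the members, total count scaling reversed the sign of ADAM10, which had no call, to -0.020 (edgeR FDR = 0.594). It also brought LAMA5 (-0.11, edgeR FDR = 0.00344) and CEACAM19 (edgeR FDR = 0.00895) past the threshold. ADAM10 passed without OV3/COX1KD replicate 2 (0.09, edgeR FDR = 0.00104), CEACAM19 without OV3/SCR replicate 2 (edgeR FDR = 0.00848), and ICAM3 without a filter (edgeR FDR = 0.00729) or without OV3/COX1KD replicate 3 (edgeR FDR = 0.00660). Depth limits what can be said of VCAM1 and CEACAM6, and small changes of genes with few counts, such as CEACAM1, could be missed.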
